A study of Mus musculus with 30 samples.

Results

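The molecular motors of the heart muscle were described here through the kinesin, dynein and dynactin genes of the array. Members were all genes whose symbol begins with Kif, Klc, Dync, Dynl, Dctn, Dnah, Dnal or Dnaic. The rule found 38 genes among the 8251 genes that could be named. Membership rests on the symbol. The only measured value in the rule was the mean over all 30 arrays, which chose 1 probe set for each of the 12 members that had several. The members comprised 3 heavy chains and 2 light chains of kinesin-1, 11 other kinesins used mainly in transport or for shaping microtubules, 7 kinesins of cell division, 8 subunits of cytoplasmic dynein, 5 of dynactin and 2 of axonemal dynein. Klc2, Klc3, Dync1li1, Dync1li2 and Dctn4 were not analysed here.

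Kinesins and dynein are motor proteins that use ATP to walk along microtubules. Most kinesins move vesicles, mRNA and mitochondria toward the cell periphery, and cytoplasmic dynein, with its partner complex dynactin, carries cargo back toward the cell centre. In heart muscle cells microtubules form a network between the myofibrils and around the nuclei, and motors are known for placing mitochondria, ion channels and mRNA along it. Another branch of the family works in the mitotic spindle, and axonemal dyneins beat cilia and sperm tails.

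The study measured left ventricles of C57BL/6 mice aged 2 months on MG_U74Av2 arrays. Mice of either sex were wild type or carried a genotype that the labels call HCM, and ate a standard rodent chow made with soy or a diet based on casein. The labels spell out neither the abbreviation nor a mutation or transgene, and they list no untreated group other than the wild types. There were 4 arrays in each group of sex, diet and genotype, except that the soy HCM males and the soy HCM females had 3 each. Each array holds the pooled RNA of 2 animals, so p-values measure the spread between pooled samples. All values are log2 expression, and a difference of 1 is a doubling.

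The markers of heart muscle cells fitted the labelled tissue, with a mean over 10 genes of 11.43 to 12.36 on every array. Their defining genes include Myh6 and Actc1. The value table reaches no 0 (its lowest value is 2.78), so no marker can be listed at 0. Arrays correlated with each other at 0.93 to 0.997. Male soy wild-type replicate 2 stood apart: it correlated with the others of its group at 0.958 to 0.968. Arrays within the other groups correlated at 0.985 to 0.997. Replicate 2 held the lowest or the highest value of its group in 30 of the 38 members. The other arrays in groups of 4 did so in 10 to 27. Added control RNAs showed that the arrays fall into sets that follow diet and genotype. The poly-A controls were at 5.94 to 6.41 on the casein HCM arrays and at 4.34 to 4.96 on all others, and hybridization controls divided casein wild type in 2, with replicates 1 and 2 of each sex in set A and replicates 3 and 4 in set B. An effect of diet or of HCM therefore cannot be told apart from a difference between array sets. The sexes are balanced within every set.

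Motor genes differed with diet and genotype about as often as all genes on the array, and 1 of them differed with sex. On soy, 9 of 38 members passed the test between HCM and wild type (limma, adjusted p below 0.05), 6 higher and 3 lower in HCM, against 25% of all 8251 genes. Without male soy wild-type replicate 2 the soy count was 14, 6 higher and 8 lower, and with array weights it was 19, 7 higher and 12 lower. With a random block for the array set it was 4. The 25% is that of the main fit and no background for these other counts. The strength of the block could be estimated only from sets A and B of casein wild type, since every other set is a whole combination. A call lost with the block therefore does not show a set effect in that comparison. On casein, 20 members passed, 10 in each direction, against 49.6% of all genes. The diet comparison called 17 members in wild type (8 higher and 9 lower on casein, against 47% of all genes). In HCM it called 25 members (13 higher and 12 lower, against 62.1%). The interaction, the HCM difference found on casein less the one found on soy, called 22 members, 12 upward and 10 downward, against 45.1% of all genes. As shares of the members these counts are 23.7%, 52.6%, 44.7%, 65.8% and 57.9%, so they lie near the background, with the interaction furthest above it. By direction, all genes were called higher and lower at 12.3% and 12.7% for HCM on soy, 26.9% and 22.7% for HCM on casein, 21.6% and 25.4% for diet in wild type, 31.9% and 30.1% for diet in HCM, and 25% and 20.1% for the interaction. The median change of the members lay between -0.08 and 0.09 in each of these comparisons, and that of all genes between -0.02 and 0.03. In all, 32 members passed in at least 1 of the 4 effects (84.2%, against 84% of all genes) and 6 in none. Quantile normalization of the values gave 7 higher and 6 lower for HCM on soy, and centring the arrays on their medians gave 13 higher and 8 lower for diet in wild type. The percentages of all genes above are those of the main fit.

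**Figure D1:**
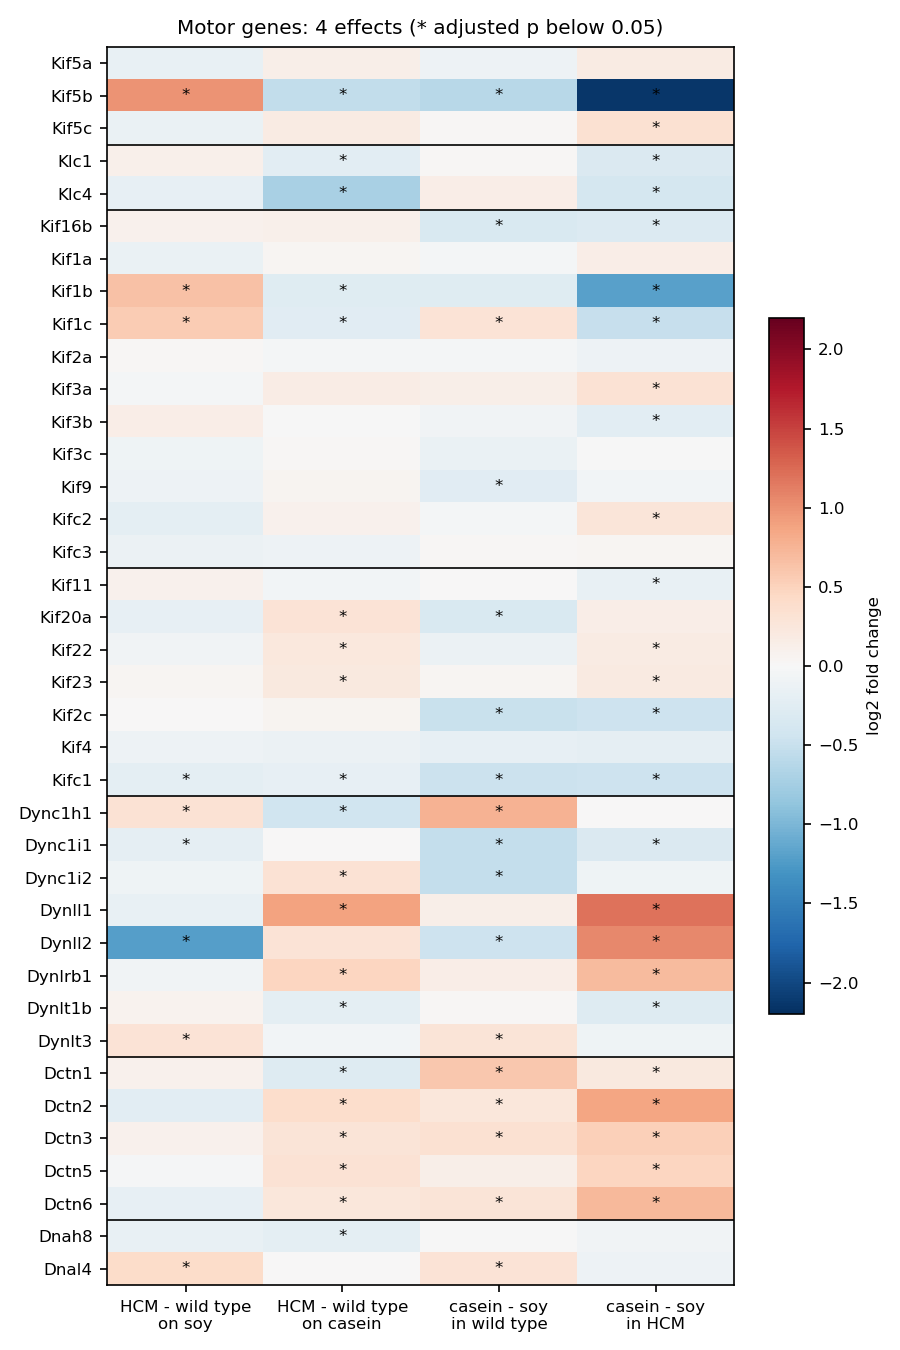
Log2 fold changes (colour) of the 38 motor genes (rows, grouped by role with black lines) in the 4 effects of HCM and diet (columns); an asterisk marks an adjusted p below 0.05 from limma. The Kif5b row is red for HCM on soy (0.99) and blue in the other 3 columns, down to -2.14 for casein minus soy in HCM. The 5 dynactin rows, just above the axonemal dynein rows at the foot, are all red in that last column.

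Kif5b, the kinesin-1 heavy chain made in most tissues, had the widest range of any member. It was high in soy HCM hearts and low in casein HCM hearts, with both wild types between. In male soy wild type the 4 arrays read 6.65, 5.25, 6.85 and 6.27, and in females 6.75, 6.58, 6.80 and 6.38. The soy HCM arrays read 7.01, 7.36 and 7.62 in males and 7.50, 7.26 and 7.86 in females. Every soy HCM array lay above every soy wild-type array. In casein wild type the males read 6.15, 4.77, 6.04 and 6.23 and the females 6.06, 5.42, 5.95 and 6.03. The casein HCM males read 5.05, 5.41, 5.08 and 5.16 and the females 5.60, 5.56, 5.23 and 5.26. Here the genotypes overlapped through replicate 2 of either sex in wild type, while casein HCM and soy HCM were wide apart.

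Kif5b was higher in HCM on soy by 0.99 ± 0.20 (SE; adjusted p = 0.00092 by limma), a 1.99-fold difference. Without the male soy wild-type array that stood apart the difference was 0.83 (adjusted p = 0.00082). On casein the gene fell by 0.54 ± 0.19 (SE; adjusted p = 0.019 by limma). The diet change in HCM was -2.14 ± 0.20 (SE; adjusted p = 6.1e-10 by limma), which is 4.42-fold lower on casein. Wild-type hearts were also lower on casein, with -0.61 ± 0.19 (SE; adjusted p = 0.0091 by limma). The interaction was -1.53 ± 0.28 (SE; adjusted p = 5.9e-05 by limma). With a random block for the array set, the HCM effects and the wild-type diet effect missed the threshold (adjusted p = 0.071 on soy, 0.14 on casein and 0.098 for diet). Against casein wild-type set A alone the HCM effect on casein was -0.31 (adjusted p = 0.27), and against set B alone it was -0.77 (adjusted p = 0.0065). With set B alone the diet effect in wild type was -0.38 (adjusted p = 0.17). In whole ventricle, fewer cells of a type and less RNA per cell cannot be told apart.

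The other heavy chains, Kif5a and Kif5c, are known mainly from neurons, and both had a narrow range. Kif5c was at a median of 5.54 in casein HCM (5.35 to 5.69) and 5.18 in soy HCM (5.11 to 5.27). These arrays did not overlap, and the rise on casein was 0.34 ± 0.08 (SE; adjusted p = 0.00066 by limma), opposite in sign to Kif5b. The Kif5c interaction was 0.32 ± 0.11 (SE; adjusted p = 0.021), and it missed the threshold with the set block (adjusted p = 0.17). Kif5a passed only the interaction, at 0.29 ± 0.11 (SE; adjusted p = 0.035 by limma), and lost it in 9 of the 30 fits that leave out an array (adjusted p up to 0.072). The Kif5a interaction was also lost with the set block and against casein wild-type set B (adjusted p = 0.22 and 0.13), and its second probe set gave -0.32 (adjusted p = 0.0027 by limma). The 7 measured nerve and Schwann cell markers had a mean of 4.88 to 5.25 over all arrays, and 1 of 7 rose with casein in HCM. Their part in the Kif5c result was not tested.

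The kinesin light chains, which tie kinesin-1 to its cargo, were lower in casein HCM hearts. Klc4 had medians of 7.65 in soy wild type (7.28 to 7.73), 7.39 in soy HCM (7.31 to 7.60), 7.74 in casein wild type (7.62 to 7.84) and 7.01 in casein HCM (6.83 to 7.17). No casein HCM array reached any array of another combination. Klc4 fell by 0.71 ± 0.06 (SE; adjusted p = 4.7e-10 by limma) with HCM on casein, a 1.63-fold drop, and by 0.39 ± 0.07 (SE; adjusted p = 1.4e-05 by limma) with casein in HCM. Klc1 fell less, by 0.23 ± 0.06 and 0.32 ± 0.06 (SE; adjusted p = 0.0017 and 8e-05 by limma) in the same comparisons, and against casein wild-type set A its HCM effect was -0.17 (adjusted p = 0.0501). Other probe sets of these genes read differently: the second for Klc4 gave -0.12 and 0.17 (adjusted p = 0.26 and 0.13), and the second for Klc1 gave 0.20 and 0.42 (adjusted p = 0.10 and 0.0018). The last for Klc1 gave -0.32 and -0.71 (adjusted p = 0.00040 and 7.2e-09 by limma), the direction of the first. The light chain values above are thus those of the brightest probe set of each gene.

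Kif1b and Kif1c, like Kif5b, were higher in HCM on soy and lower in HCM on casein. Kif1b carries mitochondria and vesicles, and Kif1c carries secretory vesicles. The bases just before their start sites, and before that of the dynein light chain Dynll1, are shown because Dynll1 rose with casein in HCM while Kif1b and Kif1c fell. They come from RefSeq (GRCm38.p6). Kif5b and Dynll2 are named only. Each line gives 250 bases, 5′ to 3′ on the gene's strand, at chr4:149307734-149307983 (minus strand) for Kif1b, the first of 2 listed starts, chr11:70700298-70700547 (plus strand) for Kif1c and chr5:115300991-115301240 (minus strand) for Dynll1. Capitals mark exact matches to the CCAAT box (CCAAT, or ATTGG on the other strand) and to the GC box (GGGCGG, or CCGCCC on the other strand).
Kif1b: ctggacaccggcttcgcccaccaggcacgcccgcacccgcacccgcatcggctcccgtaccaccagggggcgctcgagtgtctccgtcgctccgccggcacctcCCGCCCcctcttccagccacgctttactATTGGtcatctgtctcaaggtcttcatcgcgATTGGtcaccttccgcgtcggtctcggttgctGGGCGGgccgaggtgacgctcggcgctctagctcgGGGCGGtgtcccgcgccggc
Kif1c: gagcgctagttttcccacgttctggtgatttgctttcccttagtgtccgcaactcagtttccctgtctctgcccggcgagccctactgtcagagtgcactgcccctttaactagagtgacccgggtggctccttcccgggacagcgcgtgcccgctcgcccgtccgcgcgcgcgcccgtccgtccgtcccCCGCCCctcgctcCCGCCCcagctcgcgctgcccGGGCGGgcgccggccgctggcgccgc
Dynll1: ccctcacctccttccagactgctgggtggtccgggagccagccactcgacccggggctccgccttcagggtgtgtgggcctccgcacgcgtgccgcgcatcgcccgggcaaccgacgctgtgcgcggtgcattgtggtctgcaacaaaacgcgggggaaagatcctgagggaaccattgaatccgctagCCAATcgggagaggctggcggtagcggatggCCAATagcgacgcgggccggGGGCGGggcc
Kif1b held ATTGG 118 and 87 bases before the start, and Dynll1 held CCAAT 61 and 30 bases before it. Kif1c held GC boxes alone, the nearest 26 bases away. Searched likewise on both strands, the TATA box (letters TATAAA), the core of the cyclic AMP response element (letters TGACGT) and the E-box (letters CACGTG) were in none of the 3 windows, and no match shares letters with another. Over 27025 promoters of this length 34.5% held a CCAAT box, 32.9% a GC box, 13.0% a TATA box, 6.56% the cyclic AMP core and 6.05% the E-box. Of the 30 members with a window, 14 held a CCAAT box, 17 a GC box, 3 a TATA box, 4 the cyclic AMP core and 1 the E-box. A match describes letters only.

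Kif1b had medians of 6.58 in soy wild type (6.01 to 7.17), 7.26 in soy HCM (6.82 to 7.41), 6.36 in casein wild type (5.70 to 6.96) and 6.01 in casein HCM (5.80 to 6.32). The 2 HCM combinations did not overlap. Kif1b rose by 0.65 ± 0.12 with HCM on soy (SE; adjusted p = 0.00032 by limma) and fell by 1.19 ± 0.12 with casein in HCM (SE; adjusted p = 1.9e-09 by limma), which is 2.28-fold. Its second probe set gave 0.32 and -0.73 in these comparisons, both called. The HCM effect on casein, -0.27 ± 0.11 (SE; adjusted p = 0.042 by limma), was lost in 8 of the 30 fits without an array (adjusted p up to 0.13), and against set B alone it was -0.05 (adjusted p = 0.74). The male casein wild-type replicate 1 array, at 6.96, was the highest of its combination.

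Kif1c had medians of 7.48 in soy wild type (6.67 to 7.64), 7.95 in soy HCM (7.83 to 8.04), 7.68 in casein wild type (7.39 to 8.01) and 7.45 in casein HCM (7.05 to 7.71). As with Kif5b, every soy HCM array was above every soy wild-type and every casein HCM array. The HCM effect was 0.56 ± 0.10 on soy (SE; adjusted p = 0.00031 by limma), or 0.46 without the male soy wild-type array that stood apart. On casein it was -0.26 ± 0.09 (SE; adjusted p = 0.027 by limma), a call lost in 6 of the 30 fits without an array (adjusted p up to 0.067) and with the set block (adjusted p = 0.17). Casein against soy gave 0.31 ± 0.09 in wild type and -0.51 ± 0.10 in HCM (SE; adjusted p = 0.0088 and 0.00011 by limma). The wild-type diet change of Kif1c was lost with the set block and against set B (adjusted p = 0.10 and 0.053), and its HCM effect on casein was lost against set B too (-0.22, adjusted p = 0.13).

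Among the other 9 kinesins of transport and microtubule shape no change reached 1.5-fold. Kif3a rose and Kif3b fell with casein in HCM (0.33 ± 0.07 and -0.23 ± 0.06, SE; adjusted p = 0.00027 and 0.0013 by limma), although the proteins pair in 1 motor that builds cilia. Kifc2, a motor of the minus-end directed class, rose by 0.26 ± 0.09 (SE; adjusted p = 0.016 by limma) in this comparison. Kif16b, which moves early endosomes, fell with casein in wild type (-0.33 ± 0.11, SE; adjusted p = 0.014 by limma) and in HCM (-0.31 ± 0.12, SE; adjusted p = 0.024 by limma). Kif9 fell by 0.25 ± 0.05 with casein in wild type (SE; adjusted p = 0.00018 by limma). With the set block Kif16b missed the threshold in both genotypes, as did Kifc2 (adjusted p = 0.13, 0.17 and 0.14). Kif1a, Kif2a, Kif3c and Kifc3 passed in none of the 4 effects. Second probe sets gave -0.18 for Kif3a and -0.18 for Kifc2 with casein in HCM (adjusted p = 0.053 and 0.19 by limma), opposite in sign to the first.

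**Figure D2:**
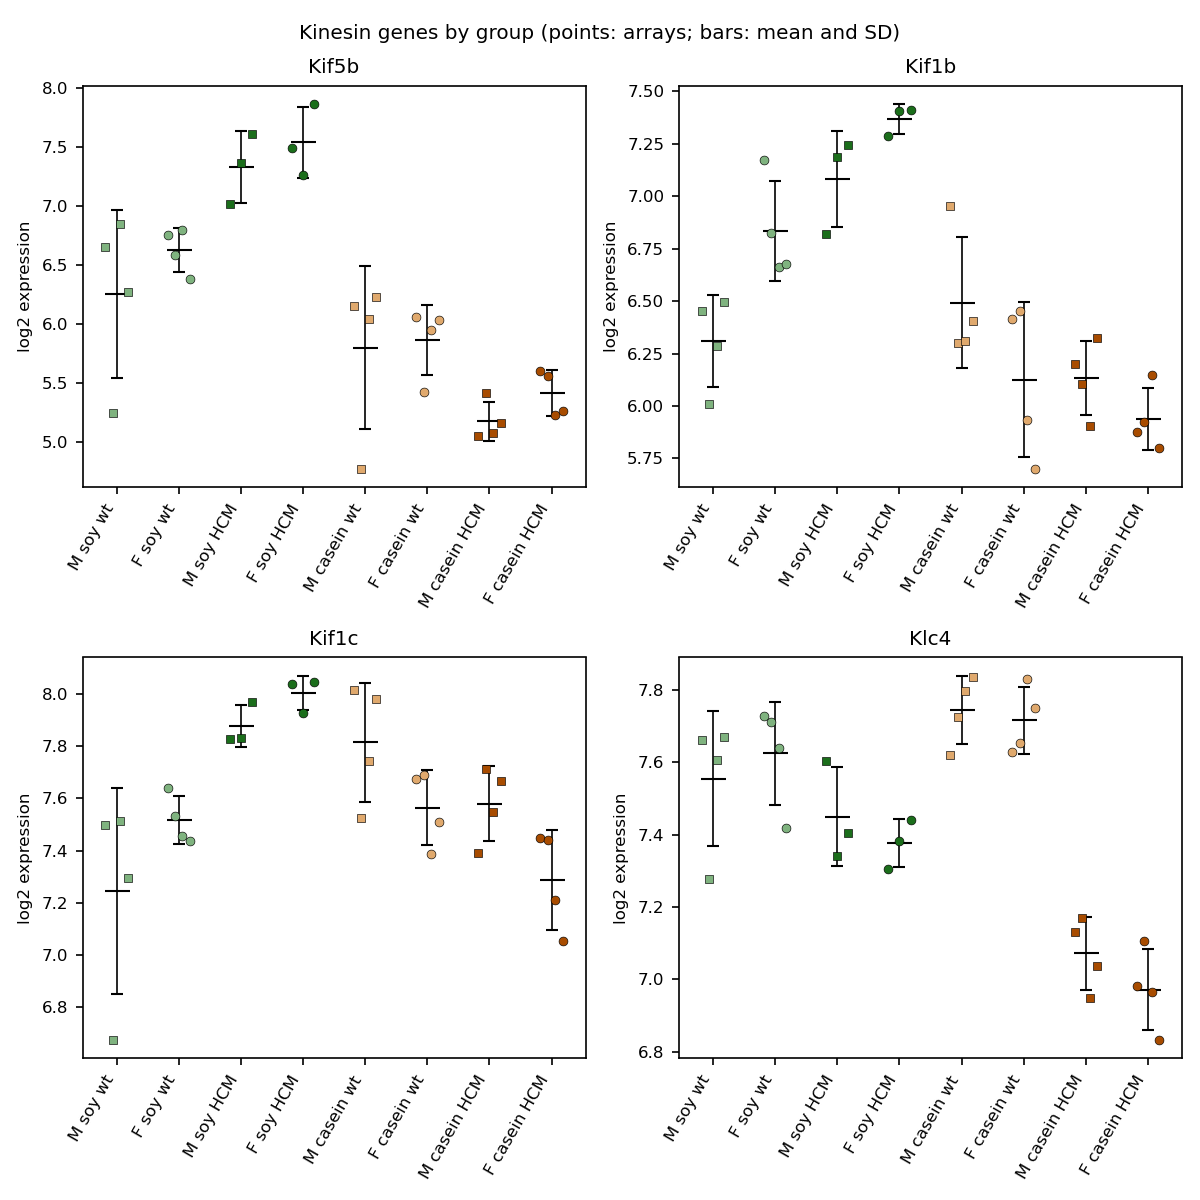
Log2 expression (vertical axes, each with its own range) of Kif5b, Kif1b, Kif1c and Klc4 in the 8 groups; squares are male and circles female arrays, and bars give the mean and SD of 3 or 4 arrays. Kif5b, Kif1b and Kif1c are highest in the soy HCM groups (means of 7.33 and 7.54 for Kif5b), and Klc4 is lowest in the casein HCM groups (7.07 and 6.97).

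Of the 7 kinesins of cell division, 3 fell, 4 did not pass and none rose with casein in wild type, where 25.4% of all genes fell. Those that fell were Kif2c, which takes microtubules apart at centromeres, by 0.49 ± 0.08, Kifc1, a spindle pole motor, by 0.48 ± 0.06, and Kif20a, a motor of cytokinesis, by 0.34 ± 0.08 (SE; adjusted p = 2.6e-05, 4.8e-07 and 0.0012 by limma). Against casein wild-type set A alone Kif20a missed the threshold (-0.16, adjusted p = 0.13), which leaves 2 of 7, and its second probe set gave -0.06 (adjusted p = 0.52). In HCM, Kif2c, Kifc1 and the spindle motor Kif11 fell with casein, and Kif22, which binds chromosome arms, and Kif23, a motor of cytokinesis, rose, but Kif11, Kif22 and Kif23 lost these calls with the set block (adjusted p = 0.099, 0.15 and 0.10). Kif2c fell by 0.45 ± 0.09 and Kifc1 by 0.45 ± 0.07 (SE; adjusted p = 0.00012 and 1.7e-06 by limma). With HCM on casein Kif20a, Kif22 and Kif23 rose by 0.21 to 0.31, and Kifc1 fell by 0.18 ± 0.06 (SE; adjusted p = 0.015 by limma). None of these 4 calls held against both casein wild-type sets. Against set A Kif20a and Kif22 missed the threshold (0.13 and 0.12, adjusted p = 0.21 and 0.17), and against set B Kif23 and Kifc1 did (0.17 and -0.13, adjusted p = 0.056 and 0.17). Of 11 measured markers of dividing cells, 5 fell and none rose with casein in wild type, and 5 fell and 2 rose with it in HCM. Their mean level was 6.14 to 6.29 in soy wild type, 5.85 to 6.21 in casein wild type, 6.11 to 6.25 in soy HCM and 5.84 to 6.00 in casein HCM. Their part in these changes was not tested. The casein wild-type sets differed in Kif2c (A minus B 0.44 ± 0.09, SE; adjusted p = 0.0016 by limma) and in Kif20a (0.36 ± 0.09, SE; adjusted p = 0.012 by limma).

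Of the 8 subunits of cytoplasmic dynein, 3 rose and 2 fell with HCM on casein, where 26.9% of all genes rose and 22.7% fell. With casein in wild type 2 rose and 3 fell, where 21.6% of all genes rose and 25.4% fell. Dync1h1, the heavy chain that holds the motor, was highest in casein wild type. Its medians were 8.86 in soy wild type (8.41 to 9.08), 9.16 in soy HCM (9.02 to 9.23), 9.59 in casein wild type (9.30 to 9.82) and 9.20 in casein HCM (8.93 to 9.33). No casein wild-type array overlapped soy wild type, and the HCM combinations overlapped each other. Dync1h1 rose with casein in wild type by 0.76 ± 0.07 (SE; adjusted p = 2.6e-09 by limma), a 1.70-fold change. In HCM the diet difference was 0.00, with a 95% interval of -0.16 to 0.16. With HCM it rose on soy by 0.32 ± 0.08 and fell on casein by 0.44 ± 0.07 (SE; adjusted p = 0.0041 and 1.3e-05 by limma). With the set block the first of these had an adjusted p of 0.13.

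The intermediate chains link the heavy chain to dynactin and to cargo. Dync1i1 was lower on casein in wild type by 0.52 ± 0.06 and in HCM by 0.31 ± 0.07 (SE; adjusted p = 2.4e-07 and 0.00037 by limma), without overlap of the arrays in either genotype. Its medians were 8.91 and 8.42 in soy and casein wild type, and 8.72 and 8.44 in soy and casein HCM. It differed between the casein wild-type sets by 0.34 ± 0.07 (SE; adjusted p = 0.0015 by limma). The Dync1i1 difference with HCM on soy, -0.20 ± 0.07 (SE; adjusted p = 0.039 by limma), was lost in 9 of the 30 fits without an array (adjusted p up to 0.097). Dync1i2 fell by 0.52 ± 0.12 with casein in wild type (SE; adjusted p = 0.00054 by limma). It rose by 0.32 ± 0.12 with HCM on casein (SE; adjusted p = 0.021 by limma), a call lost without male casein wild-type replicate 1, female casein wild-type replicate 2 or female casein HCM replicate 2 (adjusted p up to 0.064). The call was also lost with the set block (adjusted p = 0.14) and against set B, where the difference was 0.12 (adjusted p = 0.48). Its interaction, 0.41 ± 0.17 (SE; adjusted p = 0.048), was lost in 19 of the 30 fits without an array (adjusted p up to 0.12).

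Dynll1, a light chain that joins many cargo proteins as a dimer and is also found outside the dynein complex, was highest in casein HCM hearts. The soy wild-type arrays read 9.15, 8.65, 8.95 and 8.96 in males and 9.21, 9.34, 9.14 and 9.25 in females. The soy HCM arrays read 8.73, 8.85 and 8.99 in males and 9.04, 8.92 and 8.98 in females. These overlapped. The casein wild-type arrays read 8.93, 8.87, 9.25 and 9.39 in males and 9.36, 9.38, 9.23 and 9.34 in females. In casein HCM they read 9.89, 9.98, 9.80 and 9.92 in males and 10.39, 10.28, 10.48 and 10.11 in females, all above every other array. Dynll1 rose by 0.89 ± 0.07 with HCM on casein (SE; adjusted p = 1e-10 by limma), a 1.85-fold change, and by 1.19 ± 0.08 with casein in HCM (SE; adjusted p = 4.4e-13 by limma), 2.28-fold. On soy the HCM difference was -0.17 ± 0.08 (SE; adjusted p = 0.12), or -0.21 without the male soy wild-type array that stood apart (adjusted p = 0.036). The interaction was 1.05 ± 0.11 (SE; adjusted p = 1.1e-08 by limma).

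Dynll2 is a close relative of Dynll1 and moved in another pattern, low in soy HCM. The soy HCM arrays read 9.46, 8.67 and 8.62 in males and 8.40, 8.49 and 9.17 in females. The soy wild-type arrays read 10.23, 9.63, 10.02 and 9.89 in males and 10.18, 10.13, 10.20 and 9.84 in females, all above soy HCM. On casein the wild types spanned 9.14 to 9.96 and the HCM arrays 9.12 to 10.39, and they overlapped. Dynll2 fell with HCM on soy by 1.22 ± 0.16 (SE; adjusted p = 4.2e-06 by limma), 2.32-fold. On casein the difference was 0.30 ± 0.15 (SE; adjusted p = 0.088), and the interaction was 1.52 ± 0.21 (SE; adjusted p = 2.1e-06 by limma). Casein against soy gave -0.45 ± 0.15 in wild type and 1.06 ± 0.16 in HCM (SE; adjusted p = 0.012 and 1.4e-06 by limma), and the former was lost with the set block (adjusted p = 0.12) and against set A (adjusted p = 0.077). The second Dynll2 probe set gave smaller values in the direction of the first, -0.27 for HCM on soy and 0.18 for diet in HCM, both called.

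Dynlrb1, a light chain of the roadblock type, followed Dynll1 in its brightest probe set. Its medians were 8.22 in soy wild type (7.95 to 8.36), 8.16 in soy HCM (8.01 to 8.20), 8.39 in casein wild type (8.12 to 8.46) and 8.87 in casein HCM (8.65 to 8.98). It rose by 0.47 ± 0.06 with HCM on casein and by 0.69 ± 0.07 with casein in HCM (SE; adjusted p = 4.8e-07 and 1.1e-09 by limma). A second probe set shared the diet change in HCM but gave -0.01 for HCM on casein (adjusted p = 0.90). That probe set also rose by 0.58 with casein in wild type (adjusted p = 1.5e-09 by limma), and its interaction was 0.04 (adjusted p = 0.73 by limma). Dynlt3, a light chain of another type, did not overlap between genotypes on soy, where it was higher in HCM by 0.31 ± 0.07 (SE; adjusted p = 0.0021 by limma). With the set block this had an adjusted p of 0.073. Dynlt1b fell by 0.22 ± 0.06 with HCM on casein and by 0.28 ± 0.07 with casein in HCM (SE; adjusted p = 0.0031 and 0.00058 by limma). The first of these was lost against set B (-0.14, adjusted p = 0.091) and with the set block (adjusted p = 0.051). Both genes read low, Dynlt3 at 3.33 to 4.05 and Dynlt1b at 3.35 to 3.99 over all arrays. The medians of the arrays were 6.11 to 6.22, and without detection calls both genes may lie near background.

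**Figure D3:**
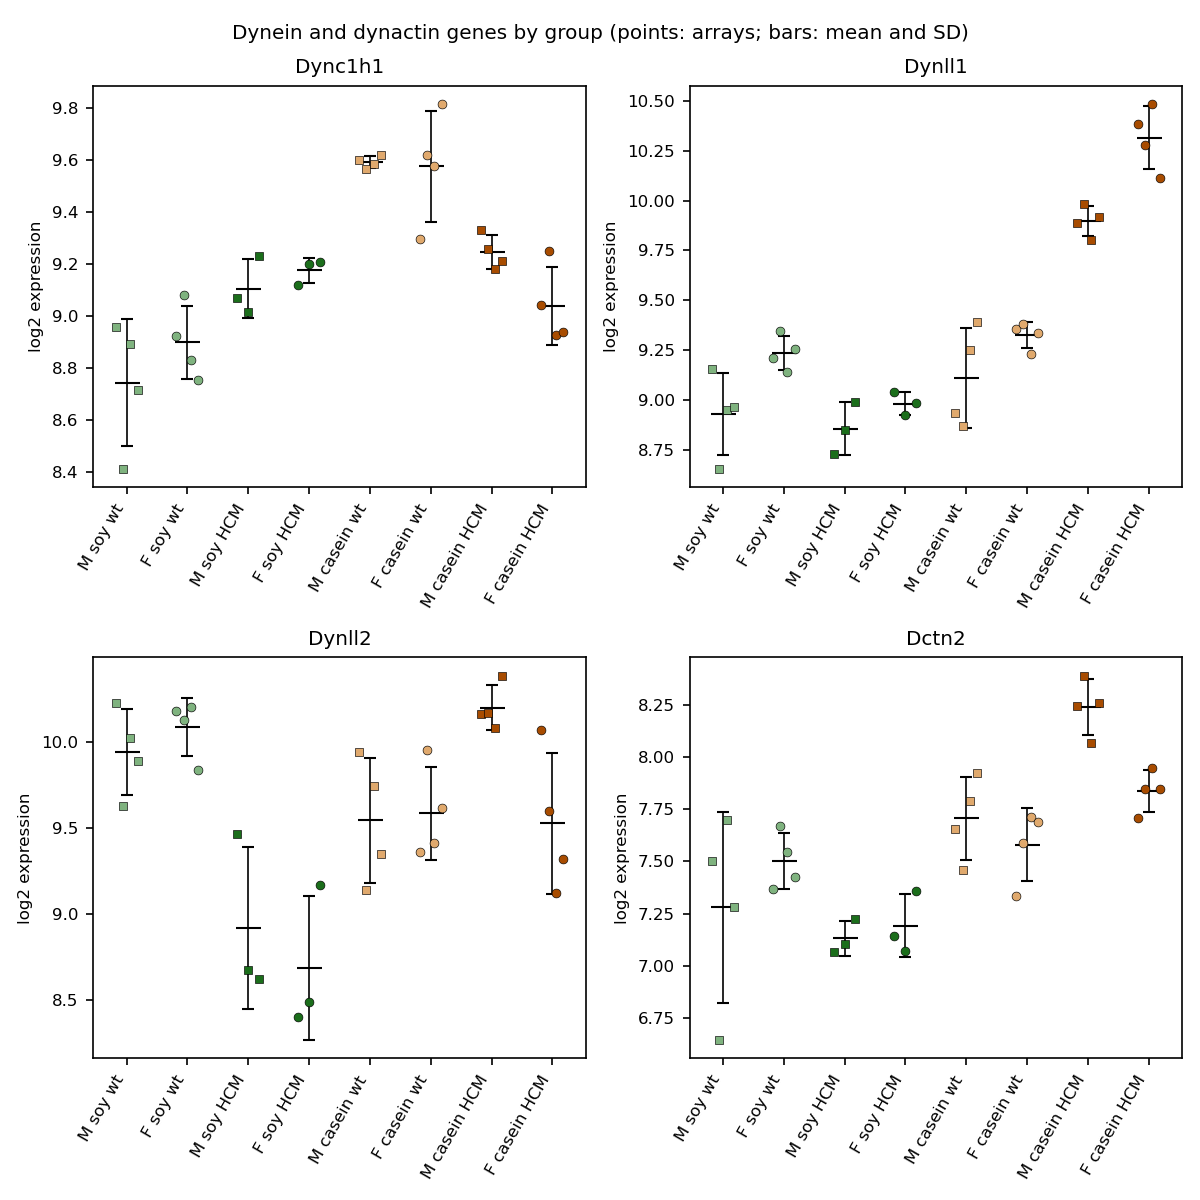
Log2 expression (vertical axes, each with its own range) of Dync1h1, Dynll1, Dynll2 and Dctn2 in the 8 groups; squares are male and circles female arrays, and bars give the mean and SD of 3 or 4 arrays. Dynll1 stands highest in casein HCM (means of 9.90 in males and 10.32 in females), Dynll2 lowest in soy HCM (8.92 and 8.68), and Dync1h1 highest in casein wild type (9.59 and 9.58).

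Dynactin lets dynein hold cargo and walk far, and its subunits were higher on casein. All 5 measured subunits rose with casein in HCM, where 31.9% of all genes rose, and 4 of 5 in wild type, where 21.6% did. Against casein wild-type set A alone the count in wild type was 2, as Dctn2 and Dctn3 missed the threshold (0.12 and 0.17, adjusted p = 0.46 and 0.12). In HCM, Dctn2, the subunit also called dynamitin, had medians of 7.12 on soy (7.07 to 7.36) and 8.01 on casein (7.71 to 8.39), and the rise was 0.88 ± 0.11 (SE; adjusted p = 8.1e-08 by limma), 1.83-fold. Dctn6, a subunit at the pointed end of the actin-like filament, went from 7.46 (7.33 to 7.67) to 8.16 (8.05 to 8.47), a rise of 0.72 ± 0.07 (SE; adjusted p = 1.7e-09 by limma). Dctn3, of the shoulder that joins filament and arm, and Dctn5, also at the pointed end, rose by 0.53 ± 0.09 and 0.47 ± 0.06 (SE; adjusted p = 1.2e-05 and 2.1e-07 by limma). For these 4 subunits no soy HCM array overlapped a casein HCM array. The share of all genes without overlap was not counted, and 62.1% of all genes were called in this comparison. Dctn1, whose long arm grips microtubules and dynein, rose by 0.22 ± 0.06 (SE; adjusted p = 0.0025 by limma) with overlap, and it lost the call with quantile normalization and with the set block (adjusted p = 0.054).

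Within the casein diet the HCM effect differed in sign among the dynactin genes, where 26.9% of all genes rose and 22.7% fell. Dctn2, Dctn3, Dctn5 and Dctn6 rose by 0.26 to 0.39, and Dctn1 fell by 0.29 ± 0.06 (SE; adjusted p = 0.00011 by limma). Dctn5 was the subunit whose genotypes did not overlap on casein, with a rise of 0.32 ± 0.06 (SE; adjusted p = 3.8e-05 by limma). Against set B alone Dctn2 and Dctn3 missed the threshold (0.26 and 0.13, adjusted p = 0.077 and 0.25), and with the set block so did Dctn3 (adjusted p = 0.061). On soy no subunit passed, with differences from -0.23 to 0.10. Without male soy wild-type replicate 2, Dctn2 and Dctn6 were lower in soy HCM (-0.33 and -0.24, adjusted p = 0.0034 and 0.0062 by limma). In wild type the largest diet change was that of Dctn1, 0.60 ± 0.06 (SE; adjusted p = 2.2e-09 by limma), 1.51-fold and without overlap. The wild-type diet call of Dctn2, 0.25 ± 0.10 (SE; adjusted p = 0.040 by limma), was lost in 9 of the 30 fits without an array, among them the fit without male soy wild-type replicate 2 (0.15, adjusted p = 0.11). It was also lost with the set block (adjusted p = 0.20), and the second Dctn2 probe set gave -0.0292.

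Markers of other cell types moved with these groups. Of 6 smooth muscle and pericyte markers 5 rose with HCM on casein and 5 with casein in HCM, and their mean level was 7.63 to 8.02 in casein HCM, 7.005 to 7.44 in casein wild type, 7.16 to 7.30 in soy HCM and 6.95 to 7.28 in soy wild type. Casein HCM ranked highest here. It also had the highest median for Dynll1, the brightest probe set of Dynlrb1, Dctn2, Dctn3, Dctn5 and Dctn6. Its median was the lowest for Kif5b, Kif1b and the brightest probe set of Klc4. Of 8 endothelial markers 3 rose with HCM on soy and 4 fell with HCM on casein, with a mean level of 7.87 to 8.02 in soy HCM, 7.32 to 7.98 in soy wild type, 7.85 to 8.03 in casein wild type and 7.59 to 7.86 in casein HCM. Of 10 cardiomyocyte markers 9 rose with HCM on soy, and 6 rose and 1 fell with it on casein. With casein 9 rose and 1 fell in wild type, and 8 rose and 1 fell in HCM. Dynactin subunits rose in these diet comparisons, and none passed with HCM on soy. The mean level of the cardiomyocyte markers was 11.43 to 11.86 in soy wild type, 12.01 to 12.18 in casein wild type, 11.999 to 12.10 in soy HCM and 12.21 to 12.36 in casein HCM. Of all genes 12.3% rose with HCM on soy, and 26.9% rose and 22.7% fell with it on casein. With casein 21.6% of all genes rose in wild type and 31.9% in HCM. The part of these markers in the motor gene results was not tested.

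The axonemal dynein genes are known from ciliated cells and sperm. Dnal4, a light chain, was lowest in soy wild type, with a median of 7.36 (7.22 to 7.45) against 7.78 in soy HCM (7.60 to 7.90), without overlap. It rose by 0.41 ± 0.06 with HCM on soy and by 0.30 ± 0.06 with casein in wild type (SE; adjusted p = 2.1e-05 and 5.7e-05 by limma). Dnah8, a heavy chain, fell by 0.22 ± 0.07 with HCM on casein (SE; adjusted p = 0.013 by limma). Its second probe set rose by 0.24 there (adjusted p = 0.00042 by limma), and the call was lost against set B (-0.17, adjusted p = 0.12) and with the set block (adjusted p = 0.12). Of 10 markers of ciliated cells and sperm 2 rose and 4 fell with HCM on soy, and their mean level was 5.82 to 6.14 in soy wild type and 5.90 to 6.02 in soy HCM. Their part in the Dnal4 result was not tested.

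The HCM effect differed between the diets, by the interaction test, in 17 of the 19 members described in full, against 45.1% of all genes. Some of the 19 were chosen for large changes or for opposite HCM calls, so this count supports nothing about them. With the set block 12 of the 17 remained, without Dctn5, Dync1i2, Kif5a, Kif5c and Klc1 (adjusted p = 0.051 to 0.23). Between the HCM effects on soy and on casein, which share no arrays, 10 of 38 members had the same sign (26.3%), against 44.1% of all genes. Kif5b, Kif1b, Kif1c and Dync1h1 passed in opposite directions, higher in HCM on soy and lower on casein. These are 4 of 38 members, near the share of all genes, where 827 of 8251 passed in opposite directions. With the set block the casein calls of Kif5b, Kif1b and Kif1c and the soy calls of Kif5b and Dync1h1 were lost. Kifc1 was the member that passed in the same direction on both diets, lower by 0.21 and 0.18, as against 313 of 8251 genes. Both Kifc1 calls were lost with the set block (adjusted p = 0.25 and 0.12). The interactions of Kif1b, Kif1c and Dync1h1 were -0.93 ± 0.16, -0.81 ± 0.14 and -0.76 ± 0.11 (SE; adjusted p = 4.7e-05, 3e-05 and 2e-06 by limma). The diet effects in wild type and HCM had the same sign in 25 members (65.8%), against 63.5% of all genes. In the 19 members not described in full, the interaction ranged from -0.40 to 0.48, with 3 called upward and 2 downward. The members with opposite calls were chosen for that pattern, so their opposite signs are a description.

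**Figure D4:**
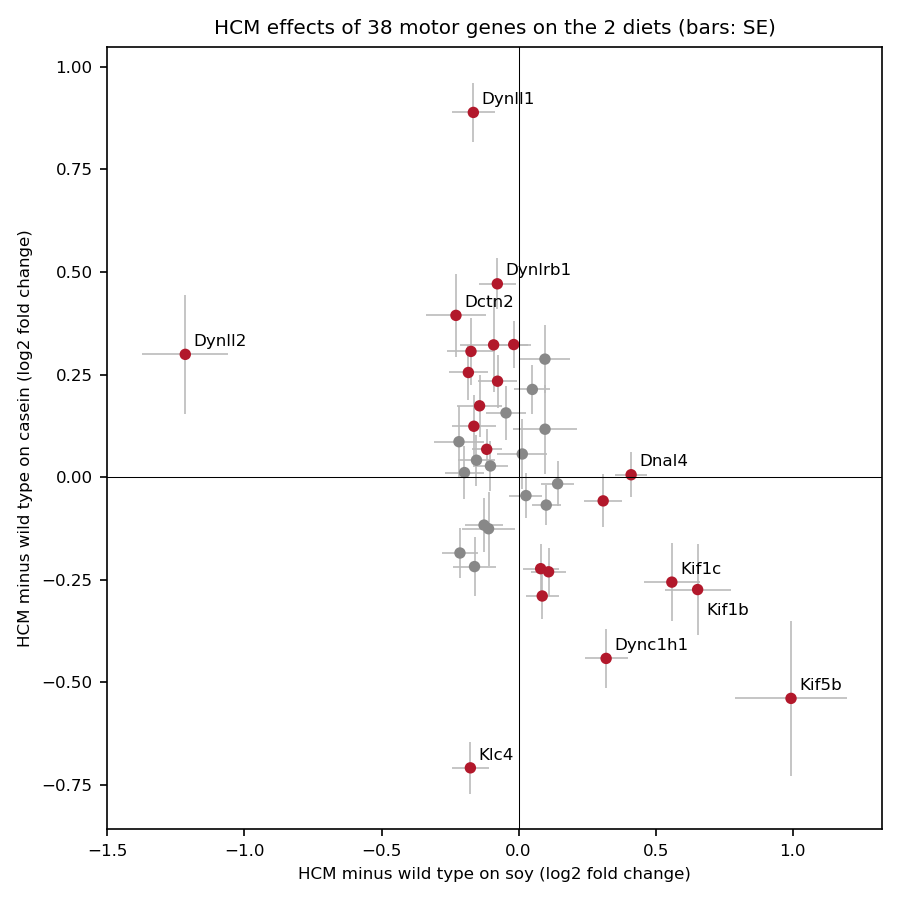
HCM minus wild type on soy (horizontal axis) and on casein (vertical axis) for the 38 motor genes, in log2 fold change with SE bars; red points have an adjusted interaction p below 0.05 (22 genes) and grey points do not. Kif5b, Kif1b, Kif1c and Dync1h1 lie at the lower right, Dynll1 and Dynll2 at the upper left, and 10 of the 38 points lie where both effects have the same sign.

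A single motor gene passed the test between the sexes. Dynll1 was higher in females by 0.27 ± 0.05 (SE; adjusted p = 0.015 by limma), and it was 1 of 38 members called, against 0.267% of all genes. The female mean was above the male mean in all 4 combinations of diet and genotype, by 0.31 in soy wild type, 0.13 in soy HCM, 0.22 in casein wild type and 0.42 in casein HCM, where the sexes did not overlap. None of these 4 differences passed alone. The call was lost without male soy HCM replicate 1 (0.25, adjusted p = 0.055 by limma). In casein HCM hearts females had less Dctn1 than males, by 0.38 ± 0.08 (SE; adjusted p = 0.028 by limma), and there 0.485% of all genes passed. Dynll2 there differed by -0.67 ± 0.21 (SE; adjusted p = 0.12). For the interaction of HCM with sex limma called 0 of 38 members and 0% of all genes, and 1 member had an unadjusted p below 0.05. For diet with sex limma called 0 members and 0% of all genes, and 8 had an unadjusted p below 0.05. With array weights, 3 members passed the latter, and the 0% of all genes is that of the main fit.

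Tested in each sex alone, most members had the same sign in males and females. The diet effect in HCM had the same sign in males and females in 36 of 38 members (94.7%), against 86.7% of all genes. The HCM effect on casein had the same sign in 33 members (86.8%, against 82.1%), that on soy in 32 (84.2%, against 74.7%) and the diet effect in wild type in 28 (73.7%, against 74.6%). These counts rest on groups of 3 or 4 arrays.

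Genes that work with the motors also changed. Of 22 measured adaptors and regulators 7 rose and none fell with HCM on soy, and 4 rose and 8 fell on casein. Among all genes 12.3% rose and 12.7% fell with HCM on soy, and 26.9% rose and 22.7% fell on casein. Trak2, which ties mitochondria to kinesin-1, rose by 0.62 ± 0.15 with HCM on soy (SE; adjusted p = 0.0032 by limma) and fell by 0.88 ± 0.15 with casein in HCM (SE; adjusted p = 9.9e-06 by limma). Nudc, a dynein regulator, rose by 0.52 ± 0.09 on soy and fell by 0.54 ± 0.08 on casein with HCM (SE; adjusted p = 0.00018 and 6.7e-06 by limma). Capza2, which caps the dynactin filament and actin filaments, rose by 0.96 ± 0.11 with casein in HCM (SE; adjusted p = 3.9e-08 by limma).

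Of 36 measured tubulins and microtubule proteins, 12 rose and 8 fell with HCM on casein, and 16 rose and 10 fell with casein in HCM. Mapt, which encodes the microtubule protein tau, rose by 0.74 ± 0.11 with HCM on soy and fell by 0.73 ± 0.10 with it on casein (SE; adjusted p = 3.1e-05 and 1.3e-06 by limma). Tbca, a tubulin folding cofactor, rose by 1.12 ± 0.09 with casein in HCM (SE; adjusted p = 2.9e-11 by limma), and Mapre1, which tracks growing microtubule ends, fell by 0.90 ± 0.09 (SE; adjusted p = 1.8e-09 by limma). Of 30 measured cell division genes, 11 fell and 1 rose with casein in wild type, and 13 fell and 3 rose in HCM, where Plk1, a mitotic kinase, fell by 1.60 ± 0.06 (SE; adjusted p = 1.2e-17 by limma). Of 15 measured axoneme and cilium genes 5 rose and 4 fell with casein in wild type. Odf2, of the centrosome and sperm tail, rose by 2.25 ± 0.10 (SE; adjusted p = 8.7e-17 by limma) and fell by 1.22 ± 0.10 with HCM on casein (SE; adjusted p = 4.9e-11 by limma). Each share is to be read against the percentages for all genes given above.

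The 12 members with several probe sets show how far a value depends on the probe set. In the diet effect in HCM, the probe sets of Kif1b, Kif20a, Dynll2, Dynlrb1 and Dctn2 had the same sign. Those of Klc4, Klc1, Kif5a, Kif3a, Kif9, Kifc2 and Dnah8 did not. For Kif5a the brightest probe set gave 0.18 and the second -0.42 (adjusted p = 1.3e-06 by limma). Probe sets of a gene can read different transcripts or related genes, and which applies here was not tested. A suffix in a probe set name marks a design with relaxed rules or with sequence shared between transcripts, and 10 of the 38 chosen probe sets carry one, those of Dynll1, Klc1 and Dynlrb1 among them.

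**Figure D5:**
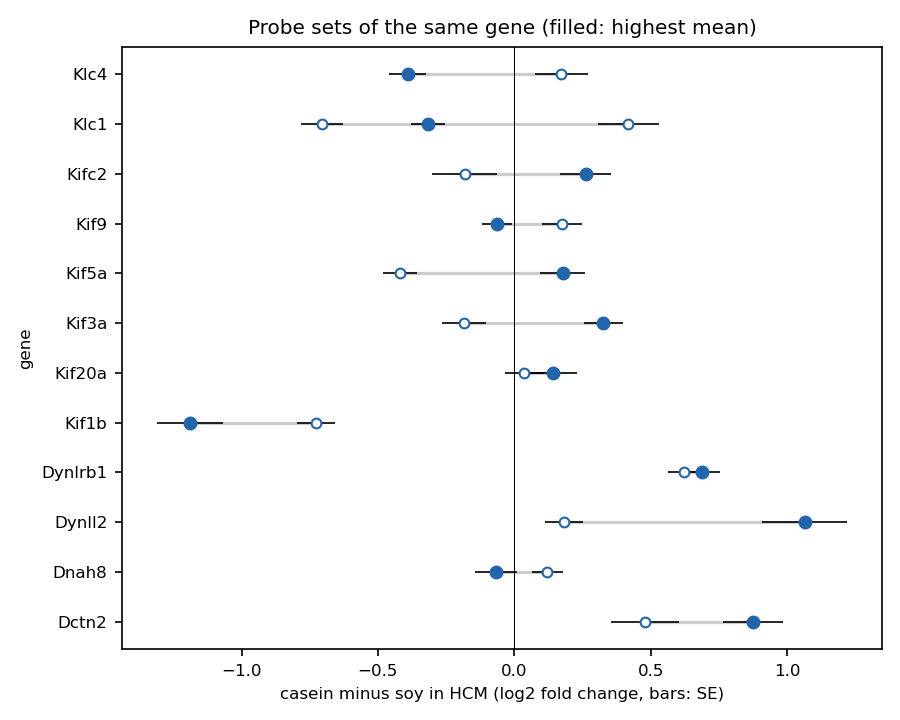
Casein minus soy in HCM hearts (horizontal axis, log2 fold change, SE bars) for each probe set of the 12 members with several; filled points are the probe sets with the highest mean, which stand for the gene elsewhere. The points of Kif1b lie at -1.19 and -0.73 on the same side of 0, and those of Klc4 at -0.39 and 0.17 on opposite sides.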

How the data were processed

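Left ventricles were measured on 30 arrays in 8 groups of sex, diet and genotype. The authors deposited log2 values, 1 for each probe set on each array. The submitters' processing notes name RMA and the Affymetrix Expression Console, for both of which the version is not given in the sources used here. RNA of 2 animals was pooled per array, per the labels' protocols. Of 12488 probe sets, 66 are controls, 10833 had 1 gene symbol in the platform annotation, 396 several and 1193 none. For each gene the probe set with the highest mean stood for the gene, which left 8251 genes. All 38 members matched the RefSeq gene table. 2 further probe sets name several Dynlt1 genes and were left out.

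One limma model (R 4.3.3, limma 3.58.1, statmod 1.5.0) had a coefficient per group over all arrays (22 residual and 6.16 prior degrees of freedom). Tests are two-sided, p-values are Benjamini-Hochberg adjusted over 8251 genes within a comparison, and the threshold is 0.05. The HCM and diet effects are means of the sexes. The fit was tested on simulated data. Depth does not apply to arrays, whose number limits the precision.

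The members and the gene and marker lists were chosen with earlier results of these data known. Members described in full are those past 1.5-fold in an effect of HCM or diet, past a sex test or with opposite HCM calls on the diets, and all measured subunits of kinesin-1, cytoplasmic dynein (Dynlt1b excepted) and dynactin. Other pathway genes are those past the threshold with the largest changes of their list, up to 4 a list. Alternatives were all named probe sets, another probe set, quantile normalization, median centring, array weights, an intensity trend, the groups compared alone, dim genes left out, the replicate number or the array set as a block, and each array left out. Comparisons against casein wild-type set A or B alone were chosen after seeing the data. Array sets are the combinations of diet and genotype, except that the difference between the hybridization controls BioD and BioC divides casein wild type into A (1.01 to 1.19) and B (-0.86 to -0.66). Scanner files, detection calls and protein sequences were not used here.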

Additional observations from a re-analysis of the deposited data

Results flagged for a closer look

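In 8 of 114 groups of 4 arrays tested, a member had an array far from the others of its group, and chance gives about 1 in 20 such groups. Replicate 2 of male soy wild type gave 3 of them, with Dynlt3 at 3.33 (others 3.48 to 3.51), Kif5c at 5.92 (5.27 to 5.36) and Klc4 at 7.28 (7.61 to 7.67). Replicate 2 of casein wild type was low for Kif5b in both sexes, at 4.77 in the male array (others 6.04 to 6.23) and 5.42 in the female array (5.95 to 6.06). Kif1b was at 6.96 in male casein wild-type replicate 1 (others 6.30 to 6.40). Dctn1 was at 9.20 in female casein wild-type replicate 1 (others 9.50 to 9.54). Kif5a was at 5.66 in male casein HCM replicate 4 (others 5.90 to 5.94).

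The HCM effect on casein differed from that on soy in 17 of the 19 members described in full, by the interaction test of limma, against 45.1% of all genes. The 19 were chosen in part for large changes or opposite HCM calls. With a random block for the array set Dctn5, Dync1i2, Kif5a, Kif5c and Klc1 missed the threshold. The effect was more positive on casein for Dynll2 (1.52), Dynll1 (1.05), Dctn2 (0.62), Dynlrb1 (0.55), Dctn6 (0.44), Dync1i2 (0.41), Dctn5 (0.34), Kif5c (0.32) and Kif5a (0.29). The second Dynlrb1 probe set gave 0.04 (adjusted p = 0.73 by limma). It was more negative on casein for Kif5b (-1.53), Kif1b (-0.93), Kif1c (-0.81), Dync1h1 (-0.76), Klc4 (-0.53), Dctn1 (-0.38), Dynlt3 (-0.37) and Klc1 (-0.34). Diet and genotype coincide with the array sets, so neither effect nor their interaction can be told apart from a difference between sets.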

How the results depend on the processing

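With a random block for the array set (correlation 0.17) the count of members called was 4 for HCM on soy, 10 for HCM on casein and 14 for the interaction, and the block ended 19 of the 65 calls of the members described in full. The correlation could be estimated only from casein wild-type sets A and B, as the other sets are whole combinations, and it was applied to every comparison. Array weights gave 19 for HCM on soy and 3 for diet by sex. The shares of all genes in the main fit are no background for counts under another fit. Without the dimmest 40% of genes, 19 members were tested, and 15 passed for diet in HCM and 14 for the interaction. Leaving out each array in turn gave 7 to 14 members for HCM on soy (the highest without male soy wild-type replicate 2, 6 higher and 8 lower, against 24.2% of all genes), 18 to 22 for HCM on casein, 16 to 22 for diet in wild type, 23 to 28 for diet in HCM, 19 to 24 for the interaction, 0 to 1 for sex (0 without male soy HCM replicate 1), 0 to 1 for diet by sex (1 without male soy wild-type replicate 1) and 0 to 0 for HCM by sex. It ended 8 of the 65 calls. Against set A or set B alone, chosen after seeing the data, HCM on casein called 19 or 15 members, diet in wild type 14 or 19 and the interaction 23 or 22. Of all genes these called 44.2% or 44.4%, 36.7% or 48.7% and 43.5% or 43.3%. Another probe set turned the sign of HCM on casein for Dynlrb1 (-0.0093) and Klc1 (0.20), of diet in wild type for Dctn2 (-0.0292), of diet in HCM for Klc1 (0.42) and Klc4 (0.17), and of the interaction for Kif5a (-0.32), Klc1 (0.33) and Klc4 (0.13). No other alternative turned the sign of a call of a member described in full. The replicate number as a block gave 9, 20, 19, 25 and 21 members for the 4 effects and the interaction, 1 for sex and 0 for the others. Of 99 pairs of arrays with the same number in different groups, 25 had deviations that correlated above 0.1 (median -0.0022, range -0.57 to 0.63). In 1 of 28 pairs of groups, male and female casein wild type, all 4 numbers did (0.13 to 0.52), and there numbers 1 and 2 form set A and 3 and 4 set B. With the number as a block within casein wild type, chosen after seeing the data, limma called 0 members for sex, as without it, and 2 had an unadjusted p below 0.05. In every other pair of groups the samples share only a number. Log2 values carry no detection call, so low members such as Dynlt3 and Dynlt1b may lie near background.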
